A study of Mus musculus with 10 samples.

Results

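The 29 genes described here are transcripts of B cells, of the lymphoid follicles that B cells fill, and of the epithelium and venules around such follicles. They were chosen by name, as genes known from Peyer's patches, and all 29 were found among the 42989 genes of the deposited table. Of these, 26 reached at least 10 normalized counts in at least 5 of 10 libraries and were tested, among 17507 genes that did so. Mef2b, Lta and Gp2 did not and are given by their values.

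RNA came from the distal ileum of male wild-type mice of the strain labelled DIO C57BL/6J, that is, C57BL/6J mice with diet-induced obesity. Gavage began at 10 weeks of age and lasted 4 weeks. In 5 mice it held TDCA (taurodeoxycholic acid, a bile acid conjugated to taurine) at 10 mg/kg, and the other 5 received an equal volume of water. Each library was made from about 20 mg of frozen ileum with a kit that depletes ribosomal RNA, and the labels do not say whether a piece held a Peyer's patch.

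Peyer's patches are lymphoid organs in the wall of the small intestine, made of B cell follicles with T cell zones between them. Stromal cells of the follicle release the chemokine CXCL13, which draws in B cells that carry its receptor CXCR5, and lymphotoxin made by lymphocytes keeps that stroma in place. Microfold (M) cells in the epithelium above the follicle take up bacteria from the gut lumen, and venules with the addressin MAdCAM-1 admit lymphocytes from blood. Patches lie at intervals along the gut, so pieces of ileum can differ in how much follicle they hold.

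Libraries held 27349003 to 44342245 reads on genes, and 3 reads, the limit that a count of 0 allows, came to 2.57 to 3.60 normalized counts. These limits cover counting error only. Ileal genes were abundant in every library: Fabp6, the ileal bile acid binding protein, lay between 28629 and 105767 normalized counts, and Slc10a2, the bile acid uptake transporter, between 11827 and 34722. The 2 deepest libraries lay at opposite ends for the B cell genes: water 5, with 44342245 reads, had the most Ms4a1, and TDCA 3, with 44057560 reads, had nearly the least.

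Ms4a1 encodes CD20, a surface protein of mature B cells. Its level was 19.2, 70.6, 9.67, 64.5 and 618 normalized counts in water 1 to 5, and 57.8, 213, 14.0, 72.8 and 303 in TDCA 1 to 5. The highest library exceeded the lowest 63.9-fold, from 712 reads in water 5 to 9 in water 3. High and low libraries occurred in both groups and the groups overlapped: water 5, TDCA 5 and TDCA 2 were highest, while water 3, TDCA 3 and water 1 were lowest. In whole tissue, fewer B cells and less RNA per B cell cannot be told apart.

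The signalling chains of the B cell receptor followed the same order of libraries with small departures. Cd79a measured 13.2, 90.8, 35.4, 50.2 and 582 normalized counts in water 1 to 5, and 56.0, 199, 14.0, 83.1 and 171 in TDCA 1 to 5. Cd79b, its partner chain, measured 16.8, 52.7, 31.2, 50.2 and 476 in water 1 to 5, and 46.4, 170, 26.2, 73.7 and 161 in TDCA 1 to 5. For both chains water 5 was far above the other 9 libraries and the groups overlapped.

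Cr2, the complement receptor CD21 of B cells and follicular dendritic cells, had the smallest p of all genes in the fit on Ms4a1 given below. It measured 25.2, 102, 16.1, 95.6 and 891 normalized counts in water 1 to 5, and 81.4, 283, 14.0, 178 and 501 in TDCA 1 to 5. The ratio of Cr2 to Ms4a1 counts, not corrected for length, stayed between 1.00 and 2.45 over the 10 libraries, although each gene spanned a more than 60-fold range. Over the 10 libraries the log2 levels of the pair had a Pearson r of 0.988 (permutation p = 1e-05, the smallest that 100000 resamples can give, adjusted p = 0.0195 over all genes tested) and a Spearman rho of 0.988 (permutation p = 1e-05, adjusted p = 0.0875). Without water 5 and water 3, the libraries farthest from the median of Ms4a1, r was 0.982.

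Pax5, the transcription factor that holds cells to the B lineage, measured 10.8, 85.2, 11.8, 57.4 and 493 normalized counts in water 1 to 5, and 49.9, 134, 10.5, 56.6 and 193 in TDCA 1 to 5. Blk, a Src-family kinase of B cells, ranged from 1.20 (1 read) in water 1 to 164 in water 5. Fcmr, the receptor for IgM, ranged from 2.40 (2 reads) in water 1 to 387 in water 5. For each of them water 1, water 3 and TDCA 3 were the 3 lowest libraries.

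The other B cell genes are given by their ranges, all with water 5 highest. Cd22, an inhibitory lectin of B cells, ranged from 33.3 to 773 normalized counts. Cd37, a tetraspanin, ranged from 25.2 to 471, and Fcer2a, the IgE receptor CD23 of follicular B cells, from 6.99 to 372. Fcrla, an intracellular Fc receptor-like protein of B cells, ranged from 12.9 to 169, and Bank1, a scaffold in B cell receptor signalling, from 48.0 to 711. Cd72, an inhibitory co-receptor, and Pou2af1, a coactivator of octamer-binding factors, had the narrowest spreads of the 14 B cell genes, 46.6 to 332 and 31.2 to 251.7 normalized counts. They departed from the order: Cd72 was lowest in water 4 and held 91.7 in TDCA 3, and Pou2af1 held 74.5 in water 1.

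Water 5 was highest for all 14 B cell genes and for 25 of the 29 genes. The 3 highest libraries were water 5, TDCA 2 and TDCA 5 for 14 of the 14 B cell genes and for 20 of all 29. The 3 lowest were water 1, water 3 and TDCA 3 for 12 of the 14 and for 19 of the 29. These library triplets were picked after the values were seen, so the counts describe the order and test nothing. The share of all tested genes that were highest in water 5 was not computed. How far these counts exceed a general trait of that library is therefore not known.

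**Figure D1:**
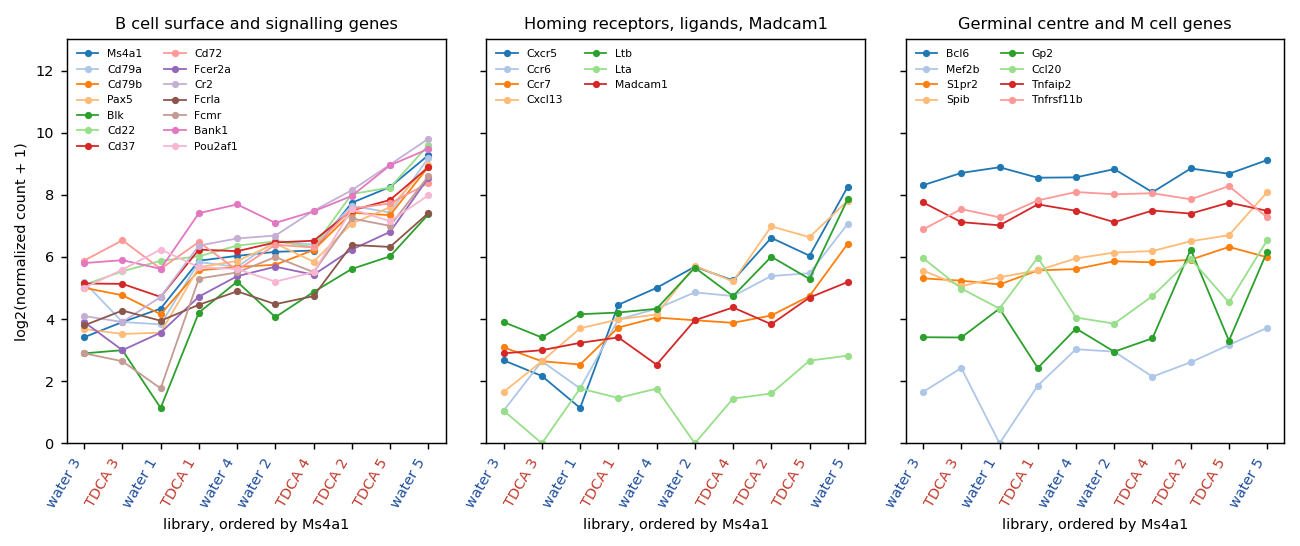
Level of each of the 29 genes, log2(normalized count + 1) on the vertical axis, in the 10 libraries ordered from left to right by their Ms4a1 level (water labels in blue, TDCA labels in red). Points are single libraries, 1 per mouse. The B cell genes, homing receptors and CXCL13 climb together from water 3 to water 5, with both groups mixed along the order, while Bcl6, Tnfaip2 and Tnfrsf11b stay level.

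A fit of every gene on its group and on the log2 level of Ms4a1 gave the change of each gene per log2 unit of Ms4a1 between mice of the same group. Of 17506 genes, 153 passed at an adjusted p under 0.05 (limma, Benjamini-Hochberg), which is 0.874% of those tested. All but 1 of them had a positive slope. Of the 25 listed genes in this fit, 17 rose with Ms4a1, against 0.868% of all genes, and 0 fell, against 0.00571%. The median slope was 0.66 log2 units for the 25 and −0.00 for all genes tested.

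Among the B cell genes 11 of 13 rose with Ms4a1. Cr2 had a slope of 1.04 ± 0.06 (SE, n = 10 libraries, limma adjusted p = 1.02e-05) and Fcmr of 1.10 ± 0.11 (limma adjusted p = 0.000536), so both changed about in proportion to Ms4a1. Pax5 followed at 0.95 ± 0.06 (limma adjusted p = 1.98e-05) and Cd79a at 0.83 ± 0.10 (limma adjusted p = 0.00166). Bank1 had a slope of 0.66 and Fcrla of 0.60, with 95% intervals below 1. Over all 25 genes the 95% interval of the slope held 1 for 9 and lay below 1 for 16.

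Cd72 and Pou2af1 were the B cell genes that did not pass. The slope of Cd72 was 0.40 ± 0.08 (limma adjusted p = 0.0543). Its exons overlap those of Tesk1 on the opposite strand over 1423 bases in the GENCODE M21 annotation, and no source says whether reads were counted by strand, so reads of the pair may not be separable. The slope of Pou2af1 was 0.44 ± 0.10 (limma adjusted p = 0.108), and water 1, low for the other B cell genes, held 74.5 normalized counts of it against 35.9 in water 2.

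The listed homing receptors, which guide lymphocytes by chemokines, all rose with Ms4a1, 3 of 3. Cxcr5, the receptor for CXCL13, measured 1.20 (1 read), 50.5, 5.37, 31.1 and 306 normalized counts in water 1 to 5, and 21.0, 96.9, 3.49, 36.8 and 64.8 in TDCA 1 to 5. Ccr6, the receptor for CCL20, measured 2.40, 28.0, 1.07, 19.1 and 133 in water 1 to 5, and 14.9, 40.8, 5.24, 25.7 and 43.5 in TDCA 1 to 5. Their slopes were 1.08 ± 0.13 (limma adjusted p = 0.0021) and 0.92 ± 0.10 (limma adjusted p = 0.000749).

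Ccr7, the receptor by which lymphocytes reach T cell zones, was lower in level, from 4.80 to 85.1 normalized counts, and had a slope of 0.56 ± 0.09 (limma adjusted p = 0.00814). For the 3 receptors the lowest libraries held 1 to 4 reads, and the 2 groups overlapped.

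Among the follicle ligands, Cxcl13 measured 12.01, 51.6, 2.15, 16.7 and 224 normalized counts in water 1 to 5, and 14.9, 126, 5.24, 36.0 and 98.5 in TDCA 1 to 5. CXCL13 is known as a product of follicular stroma and not of mature B cells. Its slope on Ms4a1 was 1.00 ± 0.10 (limma adjusted p = 0.00028), within the range of the B cell genes. Ltb, the membrane-bound lymphotoxin subunit, measured 16.8, 49.3, 14.0, 19.1 and 232 in water 1 to 5, and 17.5, 63.3, 9.61, 25.7 and 38.1 in TDCA 1 to 5, with a slope of 0.63 ± 0.09 (limma adjusted p = 0.00389). Lta, the secreted lymphotoxin subunit, had 0 to 7 reads per library. It lay above the 3-read limit only in water 5 (6.08 normalized counts) and TDCA 5 (5.32).

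Genes of the germinal centre, where B cells mutate their antibody genes, did not pass the fit on Ms4a1, 0 of 2. Bcl6, the repressor that germinal centre B cells need, measured 472, 453, 316, 376 and 555 normalized counts in water 1 to 5, and 374, 459, 416, 270 and 408 in TDCA 1 to 5. It was nearly level, with a slope of 0.08 ± 0.04 (limma adjusted p = 0.682). S1pr2, a receptor that confines B cells to the germinal centre, lay between 33.6 and 79.0 normalized counts with a slope of 0.17 ± 0.05 (limma adjusted p = 0.283). Mef2b, a germinal centre transcription factor, had 0 to 14 reads per library and was highest in water 5, at 12.2 normalized counts.

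The epithelial genes of the follicle divided. Spib, an Ets factor needed for M cell development and also made by B cells, measured 39.6, 69.5, 46.2, 60.9 and 271 normalized counts in water 1 to 5, and 46.4, 89.8, 32.3, 72.0 and 103 in TDCA 1 to 5. It rose with Ms4a1 with a slope of 0.43 ± 0.06 (limma adjusted p = 0.00294), the shallowest slope of the 17. The other 3 tested genes of this group did not pass.

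Gp2, the M cell receptor for bacterial fimbriae, measured 19.2, 6.73, 9.67, 11.95 and 71.2 normalized counts in water 1 to 5, and 4.38, 74.5, 9.61, 9.43 and 8.87 in TDCA 1 to 5. It was high in 2 libraries, water 5 and TDCA 2, which were also among the 3 highest for Ms4a1. The third of those, TDCA 5, was among the lowest for Gp2, with 10 reads. GP2 is also a product of the exocrine pancreas. Of 7 pancreas genes measured, 6 were highest in water 5, a count for which the share over all genes was likewise not computed. The summed level of the 7 genes was 82.7 to 185 normalized counts in water and 50.8 to 120 in TDCA libraries. The highest TDCA sum, 120, was in TDCA 4, where Gp2 was 9.43. Cela1, an elastase, held most of the sum, and the amylase Amy2a5 had no read in 8 of 10 libraries. The carboxypeptidase Cpa1 reached 20.0 in water 5 and 13.3 in both TDCA 2 and TDCA 5, and Gp2 was high in TDCA 2 but not in TDCA 5. The part of the pancreas genes in the Gp2 values was not tested.

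Ccl20, the chemokine of follicle-associated epithelium and ligand of CCR6, measured 19.2, 13.5, 61.2, 15.5 and 92.0 normalized counts in water 1 to 5, and 62.1, 60.2, 30.6, 25.7 and 22.2 in TDCA 1 to 5. It was high in water 5 but also in water 3, the library with the least Ms4a1, and its slope was 0.11 ± 0.15 (limma adjusted p = 0.845). Tnfaip2, a protein known from M cells, lay between 129 and 215 normalized counts with a slope of 0.03 ± 0.05 (limma adjusted p = 0.844). Tnfrsf11b, osteoprotegerin, the decoy receptor for the cytokine RANKL that induces M cells, lay between 117 and 310 with a slope of 0.09 ± 0.06 (limma adjusted p = 0.703).

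Madcam1, the mucosal addressin, was low throughout. It measured 8.41, 14.6, 6.44, 4.78 and 35.6 normalized counts in water 1 to 5, and 9.63, 13.3, 6.99, 19.7 and 24.8 in TDCA 1 to 5. Water 5 and TDCA 5 were highest here too, but the slope of 0.36 ± 0.10 did not pass (limma adjusted p = 0.251).

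**Figure D2:**
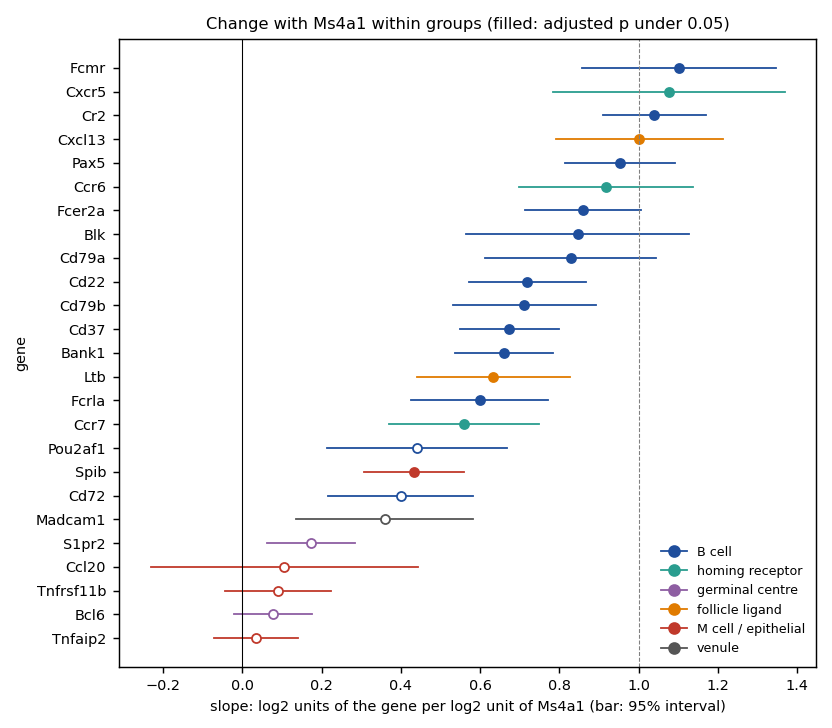
Slope of each gene on Ms4a1, in log2 units per log2 unit, with its 95% interval, for 25 genes coloured by role; filled points passed at an adjusted p under 0.05 and the dashed line marks a slope of 1. Fcmr, Cxcr5, Cr2 and Cxcl13 lie at 1.10, 1.08, 1.04 and 1.00, and Tnfaip2, Bcl6, Tnfrsf11b and Ccl20 lie near 0.

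Levels per length put Tnfrsf11b and Bcl6, which stayed level, above the genes that followed Ms4a1, but this did not hold for other genes that did not pass. Divided by exon length in GENCODE M21, the median level over the 10 libraries was 80.8 normalized counts per kilobase for Tnfrsf11b and 61.5 for Bcl6. Cd79a, the highest B cell gene on that scale, had 47.7, Cd79b had 35.9, and Ms4a1 had 10.9. Of the other genes that did not pass the fit, Tnfaip2 had 35.7, Ccl20 had 19.8 and S1pr2 had 6.49.

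Pairs of genes showed part of the division seen in the fit on Ms4a1 when group means were removed. Over 325 pairs of the 26 tested genes the median Pearson r was 0.872, and 60.6% of pairs reached 0.8. Over all 153238771 pairs of tested genes the median was −0.0049, and 1.52% reached 0.8. B cell genes among themselves had a median r of 0.938 over 91 pairs, with homing receptors 0.942, and with the follicle ligands 0.915. With the germinal centre genes the median was 0.684, and with the M cell genes 0.381. These medians join unlike genes: r with Ms4a1 was 0.892 for S1pr2 but 0.509 for Bcl6, and 0.948 for Spib but 0.215 for Ccl20. S1pr2, Cd72 (0.837), Madcam1 (0.805) and Pou2af1 (0.804) had a high r with Ms4a1 although they did not pass the fit. The 6 pairs among M cell genes had a median r of 0.264, and Ccl20 and Tnfrsf11b ran opposite to each other at −0.69. All of these values share the same 10 libraries and are descriptions.

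**Figure D3:**
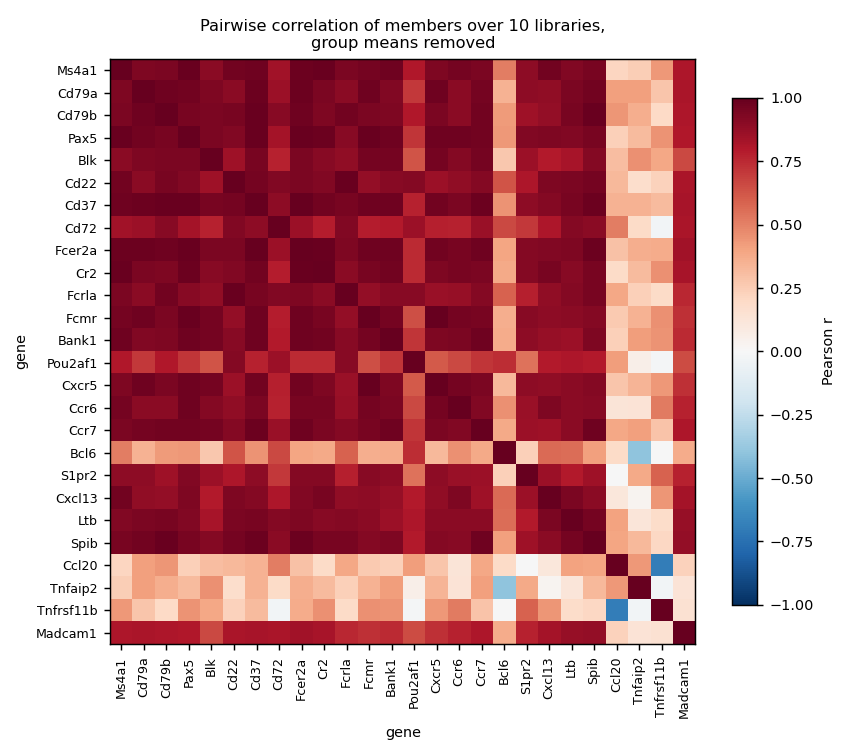
Pearson correlation of each pair of the 26 tested genes over 10 libraries after removal of group means, from −1 (blue) to 1 (red). A block of B cell genes, homing receptors, Cxcl13, Ltb and Spib is uniformly red, with Bcl6, Ccl20, Tnfaip2 and Tnfrsf11b as pale rows and columns.

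Water 5 carried much of the statistical weight. Without it, 22 genes passed the fit on Ms4a1 (0.126% of those tested), 8 of the 25 listed genes among them, and the median r of pairs was 0.797. Of the slopes, 24 of 25 were still positive. Cr2 had 1.07 (limma adjusted p = 0.00107), Pax5 0.96 (limma adjusted p = 0.00288) and Cxcl13 1.06 (limma adjusted p = 0.0148). Cd79a (slope 0.76, limma adjusted p = 0.0749), Cxcr5 (1.07, limma adjusted p = 0.0718) and Spib (0.34, limma adjusted p = 0.107) no longer passed. Slopes that had not passed moved by over 1.5 times for Cd72 (0.40 to 0.24), Bcl6 (0.08 to 0.05) and Tnfrsf11b (0.09 to 0.23), and Ccl20 turned from 0.11 to −0.20. Without both water 5 and water 3, 21 genes passed (0.120%), 9 of them listed, and the median r was 0.817. Leaving out any other single library gave 17 or 18 listed genes.

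The genes nearest to Ms4a1 by p in this fit, with the mean held to 50 normalized counts or more, were 20, of which 9 were listed genes and 11 were others. The others included Hvcn1, a proton channel of B cells, the MHC class II family genes H2-DMb2, H2-Eb2 and H2-Ob, the immunoglobulin heavy chain constant regions Ighm and Ighd, the BAFF receptor Tnfrsf13c, the inhibitory receptor Btla, the receptor P2ry10, and Clu. Clu, which encodes clusterin, a secreted chaperone known from follicular dendritic cells among many other cells, had a slope of 0.46 ± 0.04 (limma adjusted p = 0.000119) and a level of 231 to 1578 normalized counts. Hvcn1 had 0.64 ± 0.04 (limma adjusted p = 1.7e-05) and Ighd 0.93 ± 0.10 (limma adjusted p = 0.000749). By p alone, the first 100 genes held 17 of the listed genes and the first 10 held 5.

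Other lists of cell type genes were read from the same fit, against the 0.874% of all genes that passed. Of 24 further B cell genes, 15 rose with Ms4a1 and 0 fell, with a median slope of 0.30. They included Fcrl1 (slope 0.83), an Fc receptor-like protein of B cells, and Cd40 (0.45), the receptor for T cell help. Of 132 tested genes in 16 lists for other cell types, 5 rose. These were Cd2 and Cd6 of 13 T cell genes, with slopes of 0.58 and 0.53, Irf4 of 11 plasma cell genes (0.37), Il21r of 11 further germinal centre genes (0.62), and Lyz2 of 11 macrophage and dendritic cell genes (0.23). The slopes of the 13 T cell genes ran from −0.08 to 0.58, and their median of 0.15 was the highest of these 16 lists. Within that range Cd3e, a chain of the T cell receptor complex, had a slope of 0.03 (limma adjusted p = 0.933). Jchain, the joining chain of secreted IgA, had 0.16 (limma adjusted p = 0.587).

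None of the tested genes of the follicle stroma list (0 of 11), of the further M cell list (0 of 7) or of the innate lymphoid list (0 of 8) passed. Sox8, also of the further M cell list, lay below the filter and was not tested. It was highest in TDCA 5 (21.3 normalized counts), TDCA 2 (20.4) and water 5 (17.4), the libraries that were also highest for Ms4a1. Ccl21a, a T zone chemokine, was nearest in the stroma list, with a slope of 0.22 (limma adjusted p = 0.0675). The lists for enterocytes, Paneth cells, goblet cells, smooth muscle, endothelium, high endothelial venules, fat, pancreas and cell division likewise gave 0 passing genes, with median slopes from −0.23 for fat to 0.13 for smooth muscle. With the smooth muscle level added to the fit as a covariate, 18 of the 25 listed genes passed.

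**Figure D4:**
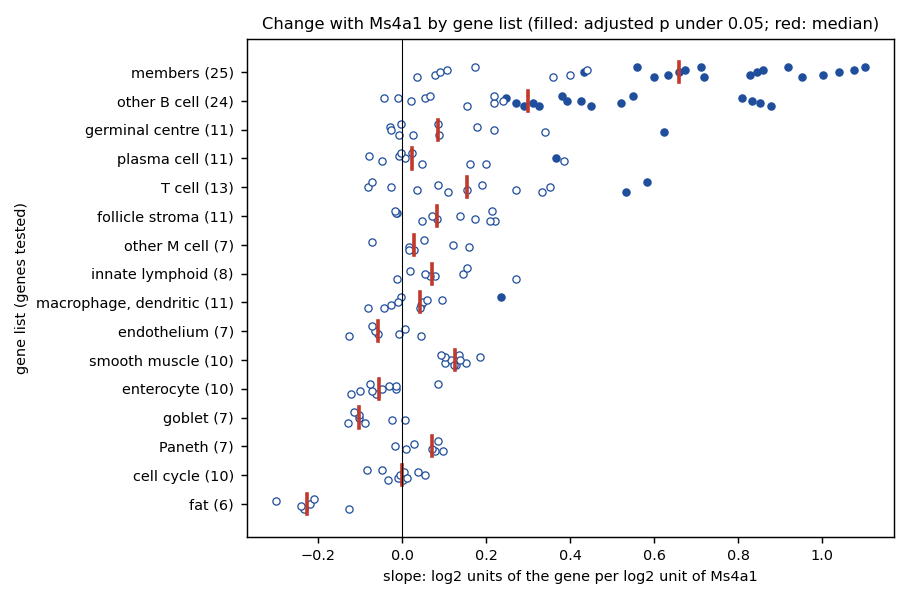
Slope on Ms4a1 of every tested gene in the 29-gene list and in 15 other lists, 1 point per gene, filled where the adjusted p was under 0.05, with the list median in red. The 25 listed genes have a median of 0.66 and the further B cell genes of 0.30, and the medians of the remaining lists lie between −0.23 and 0.15.

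Promoter sequence is shown for 4 of the listed genes whose window held a motif searched for here. Whether such motifs bear on the shared rise with Ms4a1 was not tested. RefSeq windows of 250 bases upstream of the start (build GRCm38.p6) were at hand for 23 of the 29 genes, 27 windows in all. There was no entry for Ms4a1, Cd79b, Blk, Cxcr5, Ccr7 and Tnfrsf11b. Capitals mark the motif found, on either strand: the octamer ATGCAAAT (ATTTGCAT on the other strand) in Ccr6, the palindromic EBF1-type motif, named for a B cell factor, in Cd22, and the Ets core GAGGAAGT (ACTTCCTC on the other strand), of the type bound by PU.1 and Spi-B, in Cd72 and Cd37. The windows are chr17:8235793-8236042 (plus strand) for Ccr6, chr7:30879029-30879278 (minus) for Cd22, chr4:43454627-43454876 (minus) for Cd72, and chr7:45238840-45239089 (minus) for Cd37, each written in the direction of the gene.
Ccr6: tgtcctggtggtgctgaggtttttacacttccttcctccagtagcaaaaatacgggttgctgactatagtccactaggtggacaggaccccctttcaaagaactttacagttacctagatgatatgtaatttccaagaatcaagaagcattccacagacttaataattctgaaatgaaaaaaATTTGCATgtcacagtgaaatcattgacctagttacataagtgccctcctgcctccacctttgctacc
Cd22: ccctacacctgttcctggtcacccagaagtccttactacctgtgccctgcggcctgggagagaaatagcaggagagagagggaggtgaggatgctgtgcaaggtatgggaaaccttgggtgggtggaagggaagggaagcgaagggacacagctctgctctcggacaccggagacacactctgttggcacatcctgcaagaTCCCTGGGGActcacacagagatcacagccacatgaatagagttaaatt
Cd72: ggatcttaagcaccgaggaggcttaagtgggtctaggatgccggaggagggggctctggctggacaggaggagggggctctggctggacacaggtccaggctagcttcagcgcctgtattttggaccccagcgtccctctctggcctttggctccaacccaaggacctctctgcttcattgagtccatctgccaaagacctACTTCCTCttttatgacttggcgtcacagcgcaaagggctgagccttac
Cd37: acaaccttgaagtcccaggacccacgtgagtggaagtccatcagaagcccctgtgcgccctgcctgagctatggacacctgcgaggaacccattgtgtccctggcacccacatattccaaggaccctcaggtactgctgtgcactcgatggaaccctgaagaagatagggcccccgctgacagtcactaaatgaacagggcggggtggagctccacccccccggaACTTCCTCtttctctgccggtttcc
The octamer also occurred in the window of Mef2b. Of all 32851 windows, 1.60% held the octamer, 0.779% the EBF1-type motif and 2.44% the Ets core. A match of letters is a description of the sequence and shows no binding. Of the 27 windows of listed genes, 2, 1 and 2 held these motifs, in 2, 1 and 2 of the 23 genes. Both genes with the Ets core are B cell genes, 1 of which (Cd37) rose with Ms4a1 and 1 of which (Cd72) did not pass.

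The comparison of TDCA with water asks whether 4 weeks of the bile acid changed these transcripts. No listed gene passed: 0 of 26 at an adjusted p under 0.05, where 0% of all 17507 genes passed (limma, smallest adjusted p 0.448), and 0 of 26 at an unadjusted p under 0.05, where 5.95% of all genes reached it as higher and 5.01% as lower. By edgeR and DESeq2 on the recovered reads, and by limma-voom, 0 listed genes reached an unadjusted p under 0.05 as well. The ranges of the 2 groups overlapped for all 26, while they were separate for 1.40% of all genes tested.

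The intervals were wide because mice of 1 group differed so much. Ms4a1 averaged 156 ± 259 normalized counts in water and 132 ± 121 in TDCA mice (SD, n = 5 each), with a log2 fold change of 0.55 (95% interval −2.03 to 3.13, limma adjusted p = 0.878). Cr2 averaged 226 ± 374 against 212 ± 191, with a log2 fold change of 0.60 (95% interval −2.14 to 3.33, limma adjusted p = 0.875). Differences of 4-fold in either direction lie inside both intervals, so neither a rise nor a fall of that size was detectable. The median spread within groups was 1.37 log2 units (SD) for the listed genes and 0.30 for all genes tested.

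Bcl6, Tnfaip2, S1pr2 and Tnfrsf11b, which did not pass the fit on Ms4a1, had the narrowest intervals. Bcl6 averaged 434 ± 91.7 normalized counts in water and 385 ± 71.3 in TDCA mice (SD, n = 5 each), with a log2 fold change of −0.17 (95% interval −0.55 to 0.21, limma adjusted p = 0.73). Tnfrsf11b had the smallest p of the 26. It measured 154, 258, 117, 271 and 154 normalized counts in water 1 to 5, and 225, 231, 185, 264 and 310 in TDCA 1 to 5, so the groups overlapped. Its log2 fold change was 0.40 (95% interval −0.10 to 0.91, limma p = 0.109, adjusted p = 0.53, exact permutation p = 0.159).

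The sign of the listed genes' differences varied with the scale, and for many of them also with array weights or 1 left-out library, as given below. On the log2 scale 21 of 26 genes had a fold change above 0 and 5 below 0, where 52.1% of all genes lay below 0, and none passed. The arithmetic means were higher in water for 23 of 29 genes, with water 5 as the highest library for 25. The authors' deposited table, which rests on such means, gave 23 of the 29 genes as lower and 6 as higher in TDCA, and 0 of the 21 with an adjusted p passed (0.181% of all genes with an adjusted p did). Its value for Ms4a1 was a log2 fold change of −0.24 (DESeq2 adjusted p = 0.955). No direction for TDCA can be drawn from these genes.

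Adding the Ms4a1 level to the fit compares the groups at an equal Ms4a1 level, an alternative chosen after the data were seen. Ms4a1 is itself a listed gene measured after gavage. A TDCA effect that a gene shared with Ms4a1 would be removed by this fit, so its values are not the same quantity as those above. For Fcer2a and Ltb the log2 fold changes by group alone were −0.18 and −0.45. The median width of the 95% interval of the log2 fold change fell from 3.47 to 1.30 for the listed genes. Again 0 of 17506 genes passed at an adjusted p under 0.05 (limma, smallest adjusted p 0.52), and 9.52% of all genes had an unadjusted p under 0.05. Of the 25 listed genes 2 did, a share near that background. One was Fcer2a, with a log2 fold change of −0.65 (95% interval −1.18 to −0.12, limma adjusted p = 0.52, unadjusted 0.0199). The other was Ltb, with −0.80 (95% interval −1.50 to −0.10, limma adjusted p = 0.52, unadjusted 0.0278).

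**Figure D5:**
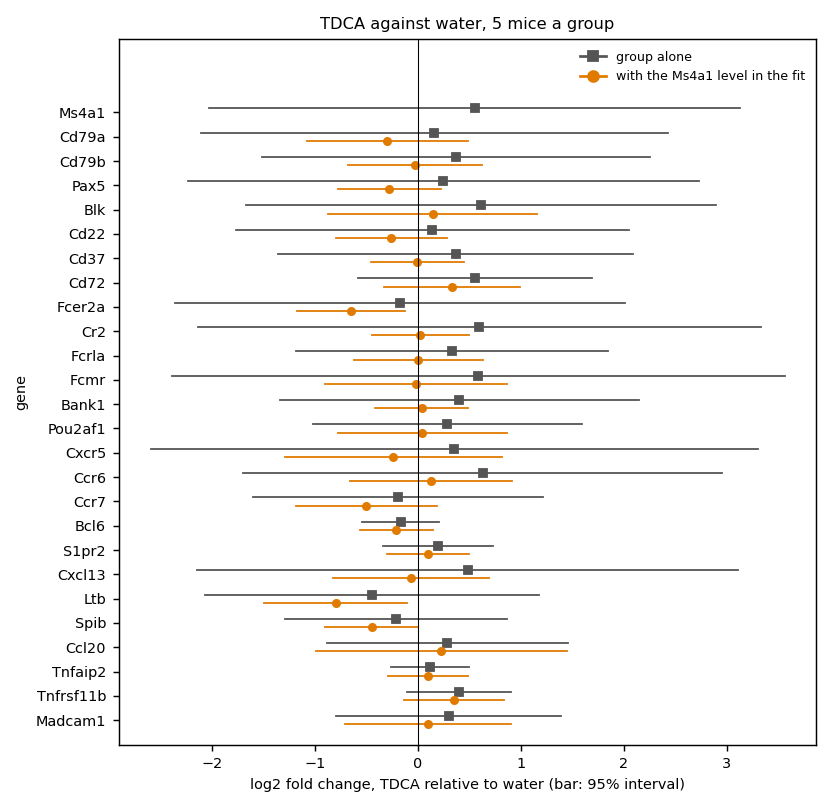
Log2 fold change of TDCA relative to water with its 95% interval for the 26 tested genes, with the group alone (grey squares) and with the Ms4a1 level in the fit (orange circles, 25 genes). Every grey interval includes 0, and the orange intervals are narrower for the genes that followed Ms4a1, with those of Fcer2a and Ltb below 0 before adjustment over all genes.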

How the data were processed

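Total RNA of distal ileum was sequenced from 5 water and 5 TDCA mice. The authors deposited normalized counts per gene, treated here as a signal: reads divided by a size factor per library. The build GRCm39 and the tools DESeq2 1.28.0 and MultiQC 1.9 are named in the submitters' processing notes. No source used here names the aligner or counter, or says how strand was handled. The authors' deposited comparison table gives log2 fold changes and p-values, and its gene symbols were used. Of all values, 100% were whole multiples of 1 read in their library (tolerance 0.0001 read), so whole reads were recovered. All 10 value columns were tied to a labelled mouse, leaving 0 unmapped. P-values measure the spread between these mice.

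Genes with at least 10 normalized counts in at least 5 libraries were tested with limma-trend (limma 3.58.1 in R 4.3.3, moderation robust) on the log2 of the normalized count plus 1. Tests were two-sided, p-values were adjusted by Benjamini and Hochberg over every gene tested, and the threshold was 0.05. Fold changes on this scale understate those of low genes. The same model with the log2 level of Ms4a1 as a term gave the slopes. Correlations used 100000 permutations, and single values the exact permutation of group labels, which can give no p under 0.00794. The code was tested on simulated data. edgeR 4.0.16, DESeq2 1.42.0 and limma-voom on recovered reads, other pseudocounts, filters, scalings and markers, array weights, a replicate block and left-out libraries were alternatives. Python 3.11.15 drew the figures.

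The 29 genes and all lists were chosen with earlier results of these data known. All 29 genes are named, as are the 20 genes of the Ms4a1 fit with the smallest p and a mean of at least 50 normalized counts, without predicted gene models, and up to 2 genes per list and fit with the smallest p. Other genes named (Fabp6, Slc10a2, Cd3e, Jchain, Cd40, pancreas genes and genes below the filter) were chosen as familiar markers or after their values were seen. Some genes of the lists are not reported here by name. P2ry8 and Prss1 were not matched by symbol. The reference at hand was of GRCm38, so exon lengths and overlaps come from GENCODE M21 by gene identifier, and promoter windows from RefSeq with their own coordinates.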

Additional observations from a re-analysis of the deposited data

Results flagged for a closer look

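In 2 of 58 groups of 5 libraries examined (29 genes, 2 groups each), 1 library stood apart from the other 4 on the log2 scale, by its gap to the next library relative to the whole range. Chance flags about 1 in 20 groups. Spib in water 5 was 271 normalized counts, against 39.6 to 69.5 in the other water libraries, and water 5 was also highest for all 14 B cell genes. Gp2 in TDCA 2 was 74.5 normalized counts, against 4.38 to 9.61 in the other TDCA libraries, while its second high value, 71.2, was in water 5.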

How the results depend on the processing

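The count of listed genes that rose with Ms4a1 was within 1.5 times of 17 under pseudocounts of 0.5 and 8, no filter, TMM and quantile scaling, Cd79a or Pax5 in place of Ms4a1, no group term, a smooth muscle covariate, and without both water 1 and TDCA 5, which left 64 genes in all. A filter of 50 normalized counts left 66 genes, 8 of the 13 listed genes still tested. Without a filter the median r of pairs was 0.798. Leaving out 1 library gave 22 to 146 genes, 8 to 18 listed genes and a median r of 0.797 to 0.904, the low ends being those without water 5, and the high end of r that without water 4. Without both libraries farthest from the median of Ms4a1 (added after seeing the data) the values were 21, 9 and 0.817. The marker alternatives have no bearing on the pairwise r.

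For TDCA against water, limma called 0 genes in every alternative run, as did edgeR (1755 at an unadjusted p under 0.05) and limma-voom (1918), while DESeq2 called 24 (2214 unadjusted), 0 of them listed. With the Ms4a1 level as a covariate 2 listed genes had an unadjusted p under 0.05, and leaving out 1 library gave 0 to 1, namely Tnfrsf11b without water 2 or water 4 and Cd72 without water 5 (log2 fold change 1.05, limma adjusted p = 0.589). The numbers 1 to 5, those of the sample descriptions, gave no clear sign of pairing between mice. Same-numbered libraries correlated at −0.15 to 0.17. Number 5 was the only one whose water library correlated best with the TDCA library of its own number. With the replicate number as a block, 0 genes were called and 0 listed genes had an unadjusted p under 0.05. The sample titles carry other numbers, of which 3, 4 and 7 recur in both groups, with r of −0.061, −0.14 and 0.27. Such correlations between single libraries cannot exclude that mice were paired. With the title number as a block, chosen after seeing the data, limma called 0 genes (smallest adjusted p = 0.293), while 16 listed genes had an unadjusted p under 0.05, all higher in TDCA mice (log2 fold change 0.82 to 2.46), beside 6.91% of all genes tested. By construction that fit compares only the 6 libraries whose number recurs, with 2 residual degrees of freedom, and leaves water 4, water 5, TDCA 3 and TDCA 5 out of the comparison.

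The log2 fold changes of single listed genes, none of which passed, changed sign with the scale or weighting. By DESeq2 they were below 0 for Cxcr5 −0.82, Pax5 −0.57, Cd79a −0.56, Ccr6 −0.50, Cd22 −0.47, Fcmr −0.46, Blk −0.44, Cd79b −0.39, Ms4a1 −0.24, Cd37 −0.19, Cxcl13 −0.13, Fcrla −0.13, Cr2 −0.10, Ccl20 −0.016, Bank1 −0.013. By edgeR they were below 0 for Cxcr5 −0.84, Pax5 −0.58, Cd79a −0.57, Ccr6 −0.53, Fcmr −0.48, Cd22 −0.48, Blk −0.47, Cd79b −0.40, Ms4a1 −0.25, Cd37 −0.20, Cxcl13 −0.16, Fcrla −0.15, Cr2 −0.10, Ccl20 −0.022, Bank1 −0.015. With array weights they were below 0 for Cxcr5 −0.65, Cd22 −0.64, Pax5 −0.63, Cd79a −0.61, Cd79b −0.42, Fcmr −0.40, Fcrla −0.37, Cxcl13 −0.36, Ms4a1 −0.36, Blk −0.35, Cd37 −0.33, Cr2 −0.29, Bank1 −0.25, Ccr6 −0.23, Pou2af1 −0.20, Madcam1 −0.058. The cause was not tested, though DESeq2 and edgeR compare arithmetic means. Leaving out 1 library moved the log2 fold change across 0 for Ms4a1 (−0.056 to 1.41), Cd79a (−0.40 to 0.94), Cd79b (−0.068 to 1.12), Pax5 (−0.29 to 1.06), Blk (−0.14 to 1.42), Cd22 (−0.26 to 0.87), Cd37 (−0.026 to 1.02), Fcer2a (−0.64 to 0.61), Fcmr (−0.21 to 1.499), Pou2af1 (−0.028 to 0.78), Cxcr5 (−0.50 to 1.280), Ccr6 (−0.059 to 1.44), Ccr7 (−0.56 to 0.41), Cxcl13 (−0.25 to 1.29), Ltb (−0.77 to 0.22), Spib (−0.43 to 0.25). Depth limits the low genes: Mef2b, Lta, and the lowest libraries of Blk, Fcmr, Cxcr5, Ccr6 and Cxcl13 rest on 0 to 2 reads. The labels do not say where along the ileum each piece was cut.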

Other observations

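Several follicle genes of the other lists lay below the filter and belong to no comparison above. Tnfsf11, the cytokine RANKL that induces M cells, ranged from 0 to 42.5 normalized counts. It was highest in water 5, as were the B cell genes Vpreb3 (20.8) and Fcrl5 (25.2) and the lymphocyte gene Cd5 (38.2). Il21, the cytokine of follicular helper T cells, was highest in TDCA 2 at 10.2, close to 8.68 in water 5. Pdcd1, an inhibitory receptor of such cells, reached 12.2 in TDCA 2 and 11.3 in water 5. Ccl19, a T zone chemokine, reached 4.34 at most and had no read in 5 libraries. Glycam1, a venule ligand of peripheral lymph nodes, reached 1.74 at most, which is under the 3-read limit, and had no read in 6 libraries.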
